A study of Mus musculus with 56 samples.

Results

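The receptors for IL-4 and IL-13 are assembled from the products of Il4ra, Il13ra1 and Il2rg, and every ChIP-seq peak that the deposited lists named for 1 of these 3 genes was collected. That gave 528 of the 1610519 peaks in 56 peak lists, for 3 of the 20352 genes the lists name: 195 for Il4ra, 300 for Il13ra1 and 33 for Il2rg. The lists give a peak the gene with the nearest start site, so the names follow position and not function. Il4ra had a peak in all 56 lists, Il13ra1 in 54 and Il2rg in 29, with 2 to 27 receptor peaks per list.

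Il4ra encodes the IL-4 receptor alpha chain, the chain that binds IL-4. Paired with the common gamma chain encoded by Il2rg it forms the type I receptor, which binds IL-4, and paired with IL-13 receptor alpha 1, encoded by Il13ra1, it forms the type II receptor, which binds both IL-4 and IL-13. Either receptor activates Janus kinases that phosphorylate STAT6, the transcription factor of alternative macrophage polarization, so the 3 genes set what a macrophage can sense of these cytokines. LPS acts through Toll-like receptor 4 and NF-κB, whose p65 subunit is among the proteins measured.

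Bone marrow-derived macrophages (BMDMs) of WT mice aged 8 to 12 weeks were differentiated for 6 days in L929 supernatant, a source of M-CSF that every group shared, and were cross-linked with DSG and formaldehyde. In the 1 hr experiment, untreated cells were compared with cells given 20 ng/ml IL-4 for 1 hr, with 2 samples each for RNA polymerase II phosphorylated at serine 5 (RNAPII-pS5, the initiating form) or serine 2 (RNAPII-pS2, the elongating form), H3K27Ac (a mark of active promoters and enhancers), the lineage factor PU.1, the acetyltransferase p300, and the deacetylases HDAC1, HDAC2 and HDAC3. In the pretreatment experiment, cells received neither agent (ctrl/ctrl), IL-4 for 24 hr (IL-4 PT/ctrl), 100 ng/ml LPS for 1 hr (ctrl/LPS), or IL-4 for 24 hr and then LPS for 1 hr (IL-4 PT/LPS), with 2 samples each for RNAPII-pS5, RNAPII-pS2 and p65. The study describes its ChIP-seq replicates as independent biological ones. The p values rest on the spread between 2 of them per group, which a group without a peak does not show.

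The lists held 8440 to 71027 peaks, and read depth is unknown. The RNAPII-pS5 lists of untreated cells held a peak for 8 of 8 macrophage marker genes, summing to 751.2 to 999.5, and the H3K27Ac lists for 6 of 8, with Cd68 and Lyz2 at 0. For T cell, B cell, neutrophil, dendritic cell and NK cell markers, 1 or 2 genes of each list had H3K27Ac regions in both untreated lists, the highest being Ms4a1 of B cells (849.8 to 867.2, with Cd79a and Pax5 at 0), and mast cell and fibroblast markers were at 0. In the p300 set, the first untreated library stood apart: the median score of regions found in every sample was 12.3 there and 34.2 to 38.5 in the other 3. The names of the 4 RNAPII-pS2 libraries of the 1 hr experiment carry, inside the peak lists, the opposite treatment to their sample labels. The labels were kept, and these libraries are called by them below. HDAC3 carries the same antibody number in the labels as H3K27Ac. The study's methods text repeats this number, while its list of reagents gives HDAC3 a number of its own.

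All scores except those of H3K27Ac are −log10 of a p or q value from the MACS2 peak caller, and which of the 2 is not stated. H3K27Ac scores are normalized tags in regions called by HOMER. A score grows with enrichment and with depth, and more factor per cell cannot be told apart from more cells carrying it. Peaks of 1 antibody that overlapped were merged into a region, giving 156 receptor regions over the 11 sets, of which 127 had a peak in at least 2 samples and were tested. A difference is a log2 difference of centred scores, with its SE. Where a group had no peak the lowest score of that antibody took its place, so that such a difference depends on this floor and is not a fold change. As the same value fills each sample of such a group, the SE and p value can understate the spread. Each fit was repeated without each library in turn, and gave no value for a region then left with a peak in fewer than 2 samples.

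The regions fell on 39 sites: 16 of Il4ra, 19 of Il13ra1 and 4 of Il2rg (highest peaks within 400 bp counted as 1 site). On mm10, Il4ra is at chr7:125552271-125579474 on the plus strand, Il13ra1 at chrX:36112108-36171262 on the plus strand, and Il2rg at chrX:101264385-101268255 on the minus strand (RefSeq, GRCm38). Of the Il4ra peaks, 68.2% were intronic, 25.1% intergenic, 6.2% at the promoter and 0.5% in the 3′ UTR. Of the Il13ra1 peaks, 57.7% were intergenic and 42.3% intronic, and none of the 56 lists had a peak within 1000 bp of its start site, the nearest lying 2.73 kb away. Of its 19 sites, 6 lay inside introns of Dock11, which is upstream, 9 in no coding gene and 4 inside Il13ra1. Il2rg was the reverse, with 66.7% of its peaks at the promoter. A site is named by its distance from the start, so that −15.1 kb lies upstream.

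**Figure D1:**
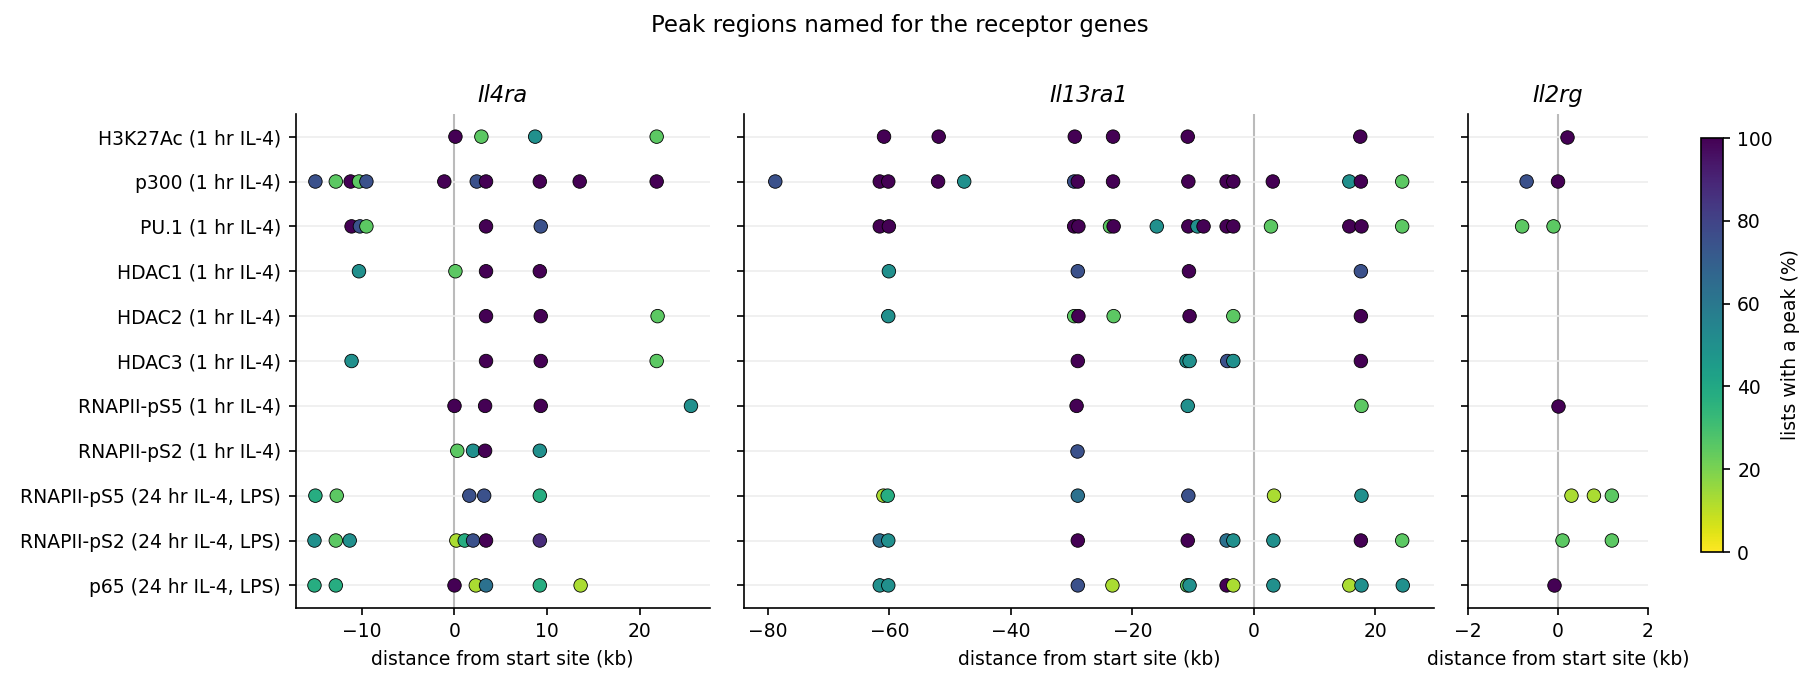
Peak regions named for the 3 receptor genes: distance from the start site in kb (x axis) by antibody and experiment (y axis), with each point a region colored by the percent of the lists of that antibody and experiment holding a peak there. Il13ra1 shows no point at its start site, while the Il2rg points lie between −0.8 and +1.2 kb of its own.

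Peaks of all 9 antibodies were found at 4 sites: Il4ra +3.4 kb, in its first intron, and Il13ra1 −29.0 kb, −10.8 kb and +17.6 kb. The start site of Il2rg carried 6 of the 9, and HDAC1, HDAC2 and HDAC3 had no Il2rg peak in any list.

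The sequences below are those of the sites on which the comparisons turn, 200 bases at the center of the highest factor peak of each, read from GRCm38. None overlapped an exon. Both strands were searched for STAT half-site pairs (TTCNNNGAA and TTCNNNNGAA), the PU.1 core (GAGGAA) and the κB consensus, which can overlap one another, and matches are in capitals.
Il4ra −15.1 kb, chr7:125537123-125537322, plus strand: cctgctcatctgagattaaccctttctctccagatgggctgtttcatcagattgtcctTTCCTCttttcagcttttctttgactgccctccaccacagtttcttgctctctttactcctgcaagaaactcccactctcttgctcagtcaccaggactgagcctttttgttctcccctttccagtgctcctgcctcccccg
Il4ra −12.8 kb, chr7:125539382-125539581, plus strand: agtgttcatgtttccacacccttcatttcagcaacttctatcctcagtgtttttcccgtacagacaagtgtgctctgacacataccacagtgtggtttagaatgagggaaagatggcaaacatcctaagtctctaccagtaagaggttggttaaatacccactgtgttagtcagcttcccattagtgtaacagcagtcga
Il4ra +3.4 kb, chr7:125555548-125555747, plus strand: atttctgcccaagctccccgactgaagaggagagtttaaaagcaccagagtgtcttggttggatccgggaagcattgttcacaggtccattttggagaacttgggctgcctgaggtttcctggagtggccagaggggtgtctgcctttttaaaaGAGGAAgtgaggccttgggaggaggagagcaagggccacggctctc
Il4ra +9.2 kb, chr7:125561423-125561622, plus strand: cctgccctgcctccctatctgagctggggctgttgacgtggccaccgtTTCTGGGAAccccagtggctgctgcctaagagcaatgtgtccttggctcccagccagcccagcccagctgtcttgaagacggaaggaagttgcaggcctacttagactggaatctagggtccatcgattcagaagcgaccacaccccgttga
Il13ra1 −10.8 kb, chrX:36101200-36101399, plus strand: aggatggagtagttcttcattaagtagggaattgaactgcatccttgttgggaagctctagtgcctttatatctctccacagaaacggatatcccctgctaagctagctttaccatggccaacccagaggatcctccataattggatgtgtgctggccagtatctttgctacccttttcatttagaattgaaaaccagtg
Il13ra1 +3.2 kb, chrX:36115272-36115471, plus strand: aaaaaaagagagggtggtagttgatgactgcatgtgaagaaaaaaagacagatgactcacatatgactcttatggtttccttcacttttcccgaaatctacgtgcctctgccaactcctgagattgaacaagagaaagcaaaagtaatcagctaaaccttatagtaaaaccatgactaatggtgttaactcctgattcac
The Il4ra +9.2 kb window held a STAT pair, TTCTGGGAA, whose letters stand 48 bases before the center, as did 8.8% of the 69354 windows of that p300 list. The PU.1 core stood at Il4ra +3.4 kb, as in 55.9% of 70936 PU.1 windows, and, on the minus strand, at −15.1 kb, as in 34.3% of 38949 p65 windows. No motif searched was found at Il4ra −12.8 kb or at the Il13ra1 sites. The κB consensus was in none of these windows, against 11.7% to 11.9% of the windows of the p65 lists used. Of the 3 promoters in RefSeq (300 bases each), that of Il4ra held 1 κB consensus match, as did 4.5% of 32851 promoters, and no other motif was found in the 3. These matches describe the letters only.

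After 1 hr of IL-4, H3K27Ac was higher at the Il4ra promoter and lower at Il13ra1. Of 9 tested receptor regions, 2 rose, both of Il4ra, and 3 fell, all of Il13ra1 (limma on log2 scores, adjusted p of at most 0.05 over all regions), and 1 of the rises was a region listed in the treated samples alone. Over the genome 40.3% of 28929 H3K27Ac regions passed this test, so that 5 of 9 is close to the background. Without centring 2 rose and 4 fell, and with quantile normalization 1 rose and 5 fell. The median difference was −0.52 over the receptor regions and −0.02 over all. At unadjusted p of at most 0.05, 8 of the 9 passed, against 51.2% of all regions.

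At the Il4ra promoter (+0.1 kb), the untreated samples scored 210.6 and 233.7 for H3K27Ac and the IL-4 samples 289.4 and 279.8. The treated samples were both above the untreated ones (log2 difference 0.41, SE 0.09, adjusted p = 0.0326), and this call was lost without any 1 of the 4 libraries (adjusted p up to 0.122) and with quantile normalization (0.0543). At +8.7 kb, beside the +9.2 kb factor site, neither untreated list held a region and the IL-4 lists scored 66.2 and 64.6. This region passed the filter through the treated samples alone, so that its difference from the floor is no support for a rise. The nearest listed regions of the untreated samples were 5.8 and 8.6 kb away, and their lists reached down to 9.2 and 9.1. A region at +2.9 kb was in the list of untreated replicate 1 only (213.7) and another at +21.8 kb in that of untreated replicate 2 only (21.6), so these were not tested. Summed over its regions, Il4ra was at 339.8 ± 120.0 (SD, n = 2) without IL-4 and 350.0 ± 7.92 (SD, n = 2) with it, which overlapped.

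At Il13ra1, H3K27Ac was lower after IL-4 at each of its 6 regions, in both treated samples against both untreated ones. Those at −60.9 and −51.9 kb lie in introns of Dock11 and carry the name Il13ra1 by distance. At −10.9 kb the untreated samples scored 133.2 and 126.2 and the IL-4 samples 62.9 and 54.5 (−1.09, SE 0.10, adjusted p = 0.00631), and this call held without each library in turn. At −23.2 kb they were 30.4 and 28.1, then 13.6 and 16.3 (−0.92, SE 0.12, adjusted p = 0.0114), and at −29.5 kb 82.3 and 78.7, then 52.0 and 49.3 (−0.62, SE 0.07, adjusted p = 0.00899). The last 2 calls were lost without either untreated library (adjusted p up to 0.0585 and 0.0566). The regions at −60.9, −51.9 and +17.5 kb did not pass (differences −0.60, −0.52 and −0.22, adjusted p = 0.0541, 0.0793 and 0.0862), and without centring the first of them was called too, at 0.0437. Summed over its regions, those in Dock11 included, Il13ra1 went from 356.6 ± 2.9 (SD, n = 2) without IL-4 to 210.2 ± 2.76 (SD, n = 2) with it. Il2rg had 1 H3K27Ac region, which scored 52.2 and 57.5 without IL-4 against 47.7 and 51.7 with it, and the groups did not differ beyond their spread (−0.09, SE 0.09, adjusted p = 0.469).

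**Figure D2:**
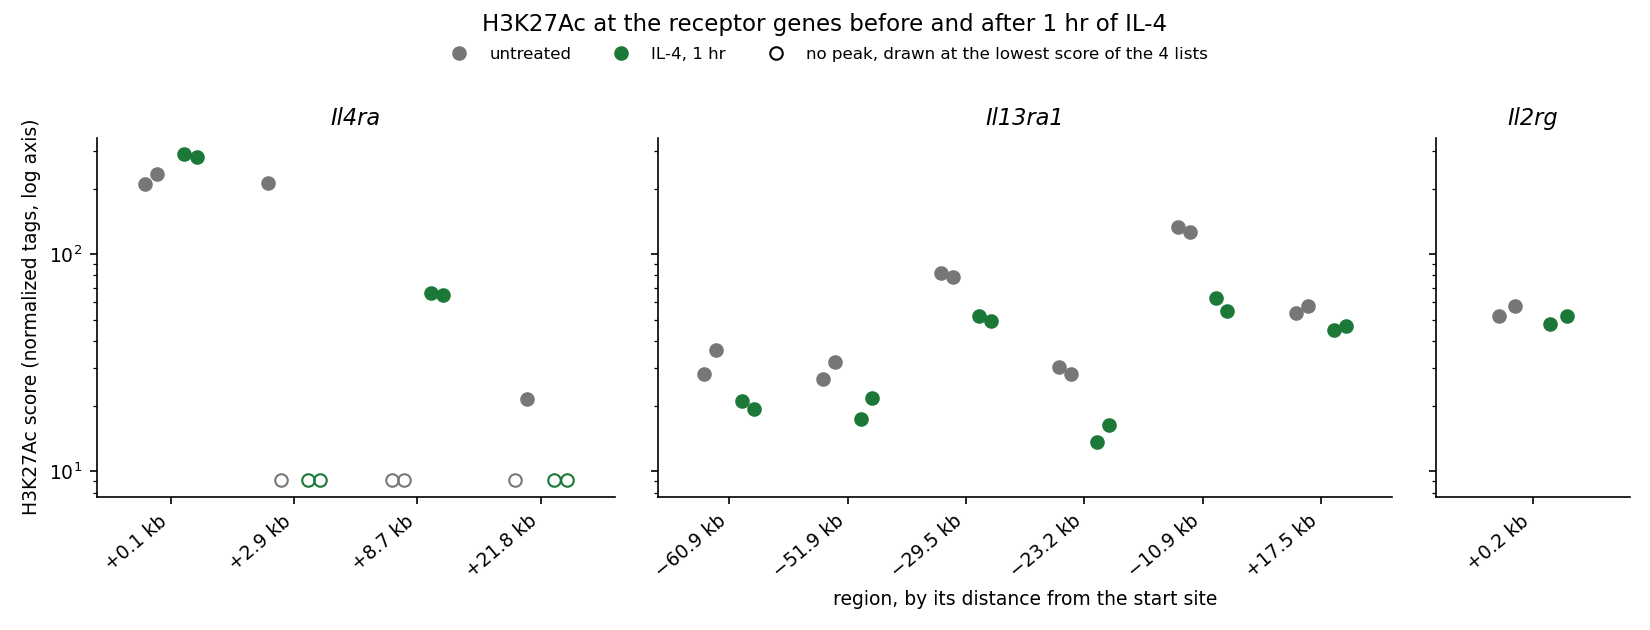
H3K27Ac score (normalized tags, log axis) of each receptor region in the 2 untreated samples (grey) and the 2 samples given IL-4 for 1 hr (green), by distance from the start site; open points mark lists with no region. All 6 regions named for Il13ra1, of which those at −60.9 and −51.9 kb lie in Dock11, were lower after IL-4. The +8.7 kb region of Il4ra was listed after IL-4 only, at 66.2 and 64.6.

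Single regions below that did not pass and are neither nearest to a start site nor the highest of a gene were chosen after their values were seen. p300 showed no receptor region past the adjusted threshold after 1 hr of IL-4 (0 of 25 by limma, with 6 at unadjusted p of at most 0.05; 2.46% and 25.0% of all 67229 regions). Centring bears on p300, since the median over all its regions was 0.11 with it and 0.78 without. The highest p300 scores of Il4ra were at +3.4 kb, 62.06 and 147.01 without IL-4 against 136.83 and 130.70 with it (−0.18, SE 0.31, adjusted p = 0.737, and 0.49 without centring). At +9.2 kb p300 scored 10.84 and 50.16 without IL-4 against 108.70 and 109.14 with it. Both treated values were above both untreated ones, and the difference did not pass (1.55, SE 0.34, adjusted p = 0.094, and 2.22 with 0.371 without centring). The first untreated library, which stood apart, gave the lower value. Without it the difference was 1.21 (adjusted p = 0.112). At Il13ra1 +3.1 kb the scores were 19.28 and 36.56, then 11.75 and 9.89 (−1.97, SE 0.39, adjusted p = 0.0804, and −1.68 with 0.0914 without that library). At Il13ra1 −29.0 kb, its highest p300 site, they were 50.96 and 146.36, then 110.27 and 124.05. At the Il2rg promoter they were 5.85 and 33.50, then 24.40 and 16.25.

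PU.1 was listed at 17 tested receptor regions, of which 0 passed by limma after IL-4 and 1 had an unadjusted p of at most 0.05 (0.0% and 12.1% of 67996 regions). At Il4ra +3.4 kb, its highest Il4ra peak, PU.1 scored 64.61 and 36.50 without IL-4 against 51.31 and 61.39 with it. At Il13ra1 −10.8 kb, the highest of that gene, it scored 54.32 and 36.46, then 55.12 and 44.74. Both pairs of groups overlapped. PU.1 was lower after IL-4 at Il13ra1 −4.5 kb, at 20.62 and 13.69, then 7.14 and 9.31 (−1.38, SE 0.47, adjusted p = 0.356). Il2rg had a PU.1 peak in 1 untreated list (3.20) and 1 IL-4 list (4.42), at different positions.

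The deacetylases shared the Il4ra +3.4 and +9.2 kb and Il13ra1 −29.0, −10.8 and +17.6 kb sites. By limma, 0 of 7 HDAC1, 0 of 6 HDAC2 and 0 of 9 HDAC3 receptor regions passed, where 0.0% of all regions of each passed. At unadjusted p of at most 0.05 the counts were 1, 0 and 2, against 14.0% of 27384, 13.9% of 24751 and 19.3% of 12567 regions. HDAC3 at Il4ra +3.4 kb scored 30.78 and 26.56 without IL-4 against 18.35 and 15.98 with it, with both treated samples lower (−1.03, SE 0.47, adjusted p = 0.334). HDAC1 at the same site scored 15.30 and 7.03, then 8.54 and 5.64, and HDAC2 14.96 and 16.41, then 19.15 and 7.39, with groups that overlapped. HDAC1 at Il13ra1 −10.7 kb scored 8.55 and 10.33, then 3.64 and 3.73 (−1.03, SE 0.46, adjusted p = 0.443). HDAC1 peaks named for Il13ra1 numbered 4 in each untreated list and 1 and 3 in the IL-4 lists, and the HDAC1 lists without centring had a median difference of −0.42 over all regions.

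RNAPII-pS5 at the Il4ra promoter scored 66.91 and 45.82 without IL-4 against 57.57 and 57.35 after 1 hr of it, so the groups overlapped (0.17, SE 0.23, adjusted p = 0.788). Inside the gene, at +9.3 kb, it was 3.72 and 3.73, then 9.08 and 7.54 (1.26, SE 0.29, adjusted p = 0.111), and at +3.3 kb 12.94 and 12.93, then 7.36 and 6.90 (−0.75, SE 0.29, adjusted p = 0.283). The signs of these differences were opposite, and neither passed. At Il13ra1 −10.9 kb only the untreated samples had a peak, at 4.76 and 4.11 (−1.51, SE 0.25, adjusted p = 0.0561, and 0.0473 with quantile normalization). The Il2rg promoter scored 36.52 and 16.79, then 22.44 and 16.20, again with overlap. Of 7 tested receptor regions, 0 passed by limma and 3 had an unadjusted p of at most 0.05, against 5.43% and 19.5% of 32095 regions.

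RNAPII-pS2 in the 1 hr experiment rests on the 4 libraries whose list names and labels disagree. In the libraries labelled untreated, Il4ra +2.0 kb scored 5.03 and 6.71 and +9.2 kb 4.52 and 8.47, and the libraries labelled IL-4 had no peak at either (−2.02 and −2.11, adjusted p = 0.0557 and 0.0572). By the names inside the lists these directions are the reverse. Of 4 tested receptor regions, 0 passed by limma and 2 had an unadjusted p of at most 0.05, against 0.0% and 21.0% of 18314 regions. Regions of 9 genes known to respond to IL-4, such as Arg1, had a median difference of −2.12 in this set by the labels, against 1.01 in the RNAPII-pS5 set.

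**Figure D3:**
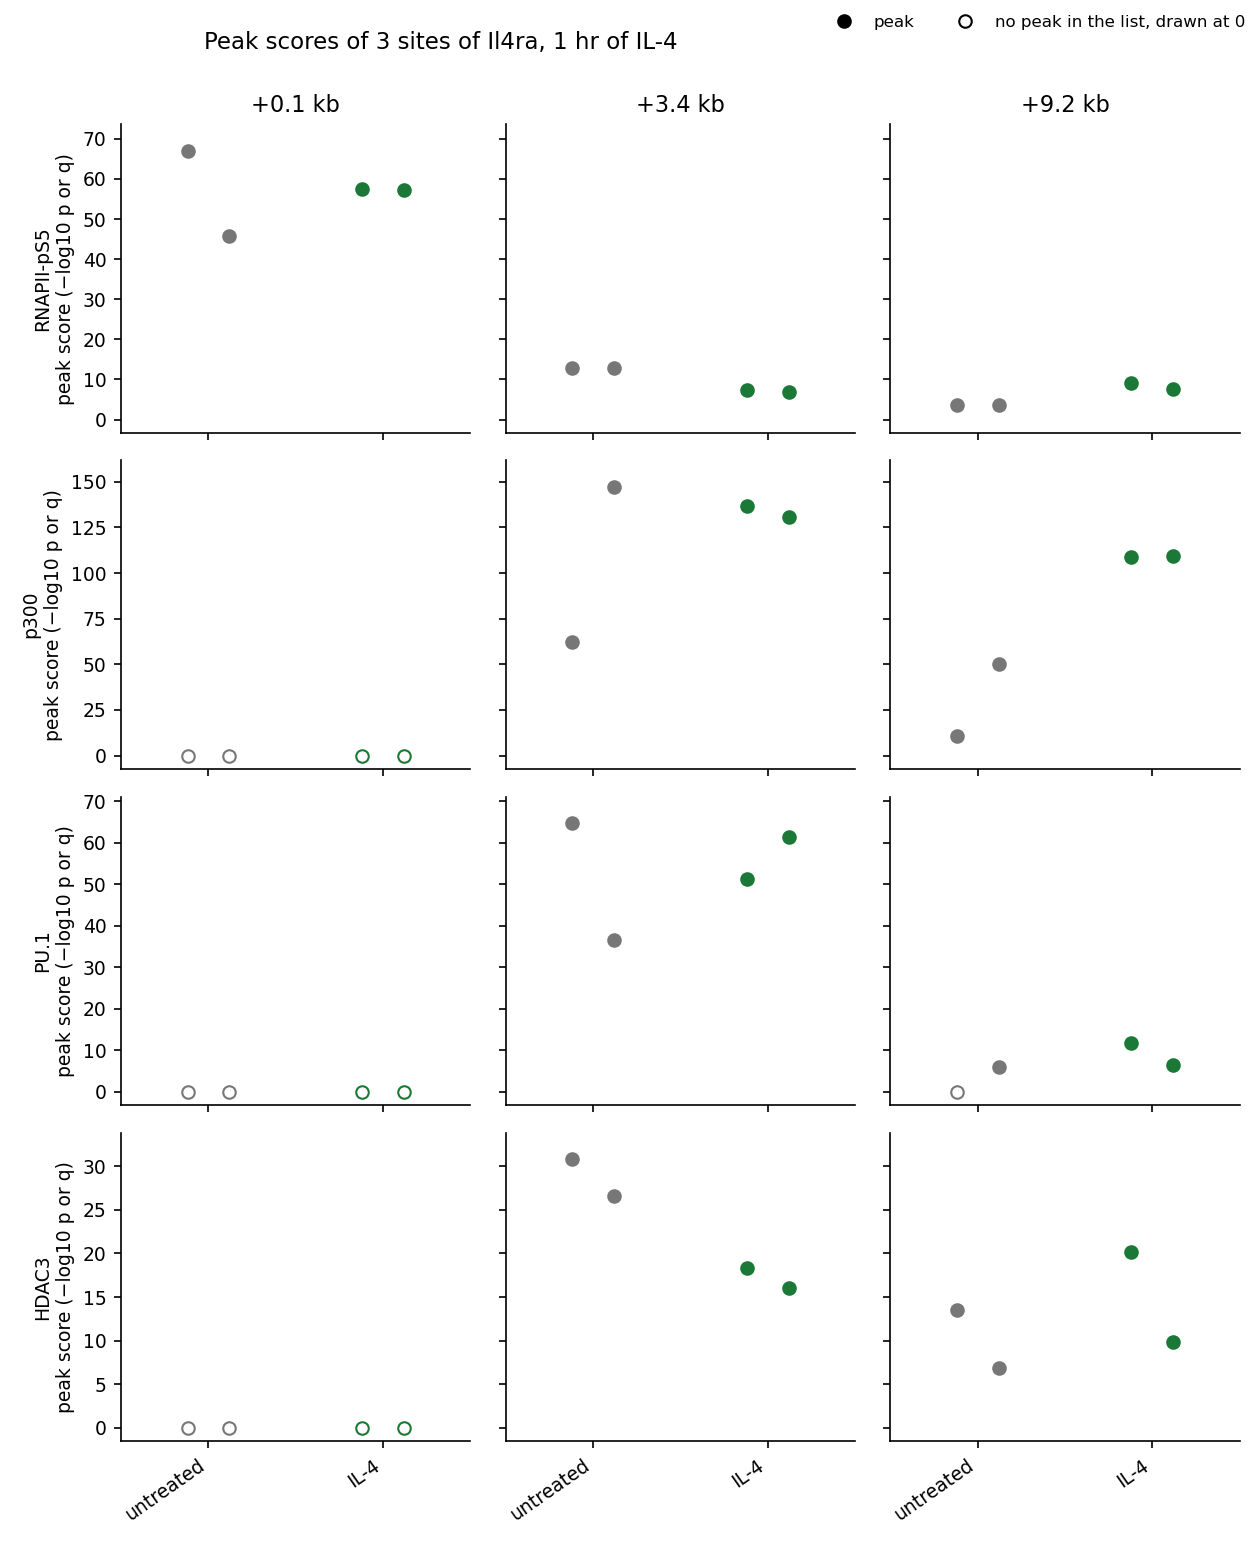
Peak scores (−log10 p or q, linear axes) of RNAPII-pS5, p300, PU.1 and HDAC3 at the Il4ra sites +0.1, +3.4 and +9.2 kb in the 2 untreated samples (grey) and the 2 samples given IL-4 for 1 hr (green); open points at 0 mark lists with no peak. As drawn, before centring, the groups do not overlap for p300 and PU.1 at +9.2 kb, HDAC3 at +3.4 kb and RNAPII-pS5 at both. None of the differences drawn passed the adjusted test, and that of PU.1 at +9.2 kb was within its spread (1.31, SE 1.03, adjusted p = 0.772 by limma).

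The pretreatment experiment asked what IL-4 for 24 hr does to the response to LPS, and its 5 comparisons draw on the same 8 samples of each antibody, so their values are not independent. After LPS alone RNAPII or p65 was called higher at 17 receptor regions, 12 named for Il13ra1 and 5 for Il4ra. Those named for Il13ra1 include the −61.6 and −60.2 kb sites, which lie in introns of Dock11. Of the 19 called in either direction, 4 passed the filter through the ctrl/LPS samples alone, and 15 had no peak in the group where they were lower. The called regions with peaks only in samples given LPS, with or without IL-4, likewise had to differ from the floor. For RNAPII-pS5, 4 of 10 tested receptor regions rose and none fell (29.8% of 27609 regions passed in either direction). For RNAPII-pS2, 7 of 18 rose and none fell (33.3% of 39261). For p65, 6 of 15 rose and 2 fell (46.7% of 37564), and without centring 7 rose and none fell. Over all regions 3111 rose and 5129 fell for RNAPII-pS5, 7004 and 6087 for RNAPII-pS2, and 10103 and 7423 for p65. Counting both directions, the receptor shares were not far from those of all regions, and they were not tested against them. The centring matters for p65: regions in every sample had a median score of 10.5 to 12.5 without LPS and 25.6 to 31.8 with it, so that the median of all p65 regions moved from 0.09 to 1.14 when samples were not centred. The receptor regions of RNAPII-pS5 had a median of 0.41 against −0.11 over all. Those of RNAPII-pS2 had 1.39 against −0.19, and those of p65 1.36 against 0.09. Absent peaks were shifted by the centring too. Il4ra −15.1 kb, listed in neither group, took −0.19 for RNAPII-pS2 and −1.04 for p65. The RNAPII-pS2 median over all was 0.0 without centring, so its −0.19 is this shift and no change over the genome. A p65 difference from an absent peak under LPS carries such a shift.

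At Il13ra1 +3.2 kb, in the first intron, RNAPII-pS2 had no peak in ctrl/ctrl or IL-4 PT/ctrl samples and scored 31.54 and 32.92 in ctrl/LPS and 27.51 and 28.63 in IL-4 PT/LPS samples. p65 was likewise absent without LPS and scored 22.27 and 12.64 in ctrl/LPS and 6.85 and 15.01 in IL-4 PT/LPS samples. All 4 LPS lists thus held this site for both antibodies and no other list did. Both regions passed the filter through samples given LPS alone, so they had to differ from the floor. The difference under LPS alone was 4.34 (SE 0.22, adjusted p = 0.000428) for RNAPII-pS2 and 2.63 (SE 0.43, adjusted p = 0.00639) for p65, and both calls held without each library in turn. In the 1 hr experiment p300 had a peak at this site in all 4 lists and RNAPII had none.

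The −60.2 kb site, which lies in an intron of Dock11 and carries the name Il13ra1 by distance, behaved alike in the ctrl/LPS samples. RNAPII-pS2 scored 20.52 and 15.38 there and 12.19 and 13.66 in IL-4 PT/LPS samples, with no peak in the 4 lists without LPS (3.48, SE 0.24, adjusted p = 0.000469 for LPS alone). RNAPII-pS5 scored 11.65 and 6.55 in ctrl/LPS samples and 3.23 in 1 IL-4 PT/LPS sample (2.78, SE 0.48, adjusted p = 0.00778). p65 scored 19.93 and 18.84 in ctrl/LPS and 7.07 and 11.21 in IL-4 PT/LPS samples (2.84, SE 0.24, adjusted p = 0.000805). These 3 calls held without each library in turn. Their regions had peaks in samples given LPS alone, so they had to differ from the floor. At −61.6 kb RNAPII-pS2 (2.39, SE 0.59, adjusted p = 0.0251) and p65 (1.91, SE 0.39, adjusted p = 0.0116) rose as well, though both calls were lost without either ctrl/ctrl library, and the first also without ctrl/LPS replicate 2 (adjusted p up to 0.109 and 0.0586).

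Inside Il13ra1 at +24.4 kb, RNAPII-pS2 had a peak in the ctrl/LPS samples only, 5.59 and 6.94 (1.97, SE 0.24, adjusted p = 0.00167), and passed the filter through them alone. p65 at +24.5 kb scored 7.56 and 6.33 in ctrl/LPS samples and 6.83 and 3.41 in IL-4 PT/LPS samples (1.36, SE 0.37, adjusted p = 0.0302). At +17.7 kb p65 was absent without LPS and scored 5.77 and 12.60 in ctrl/LPS and 9.90 and 14.89 in IL-4 PT/LPS samples (1.66, SE 0.40, adjusted p = 0.0208). Upstream, at −29.0 kb, RNAPII-pS2 scored 10.46 and 6.47 in ctrl/ctrl and 21.53 and 26.18 in ctrl/LPS samples (1.34, SE 0.40, adjusted p = 0.0497). RNAPII-pS5 at that site had no ctrl/ctrl peak and scored 5.63 and 10.74 in ctrl/LPS samples (2.61, SE 0.51, adjusted p = 0.0127). The p65 scores there were 4.88 in 1 ctrl/ctrl sample and 17.49 and 28.70 in ctrl/LPS samples, which did not pass (2.10, SE 0.92, adjusted p = 0.118). The call at +24.4 kb held in the 6 fits that gave a value, and the fits without either ctrl/LPS library, which carried its peaks, gave none. Those of p65 at +17.7 kb and of RNAPII-pS5 at −29.0 kb were lost without either ctrl/ctrl library, the latter also without ctrl/LPS replicate 2 (adjusted p up to 0.0859 and 0.068). Those of p65 at +24.5 kb and RNAPII-pS2 at −29.0 kb were lost without any of 6 libraries, all but the IL-4 PT/LPS ones for the first and all but the IL-4 PT/ctrl ones for the second (up to 0.12 and 0.227). With a floor 4 times as high, the p65 differences at −61.6, +17.7 and +24.5 kb became −0.09, −0.34 and −0.64 and that of RNAPII-pS2 at +24.4 kb −0.03.

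p65 was bound 4.5 kb upstream of Il13ra1 with and without LPS. It scored 32.42 and 31.72 in ctrl/ctrl, 12.96 and 13.02 in IL-4 PT/ctrl, 33.55 and 25.03 in ctrl/LPS and 23.60 and 37.85 in IL-4 PT/LPS samples. The raw scores of ctrl/ctrl and ctrl/LPS samples overlapped, and the called decrease under LPS (−1.19, SE 0.28, adjusted p = 0.018) rests on the centring: it was −0.15 (adjusted p = 0.834) without it. It was also lost without either ctrl/ctrl library or ctrl/LPS replicate 2 (up to 0.0705). The Il2rg promoter was the other region with a called p65 decrease. Its scores were 11.14 and 21.50 in ctrl/ctrl, 5.68 and 5.62 in IL-4 PT/ctrl, 11.33 and 8.82 in ctrl/LPS and 20.16 and 15.99 in IL-4 PT/LPS samples. Here too the groups overlapped before centring (−1.68, SE 0.36, adjusted p = 0.0141 centred, and −0.63, adjusted p = 0.268 without), and the call was lost without ctrl/ctrl replicate 2 or ctrl/LPS replicate 2 (up to 0.0577).

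**Figure D4:**
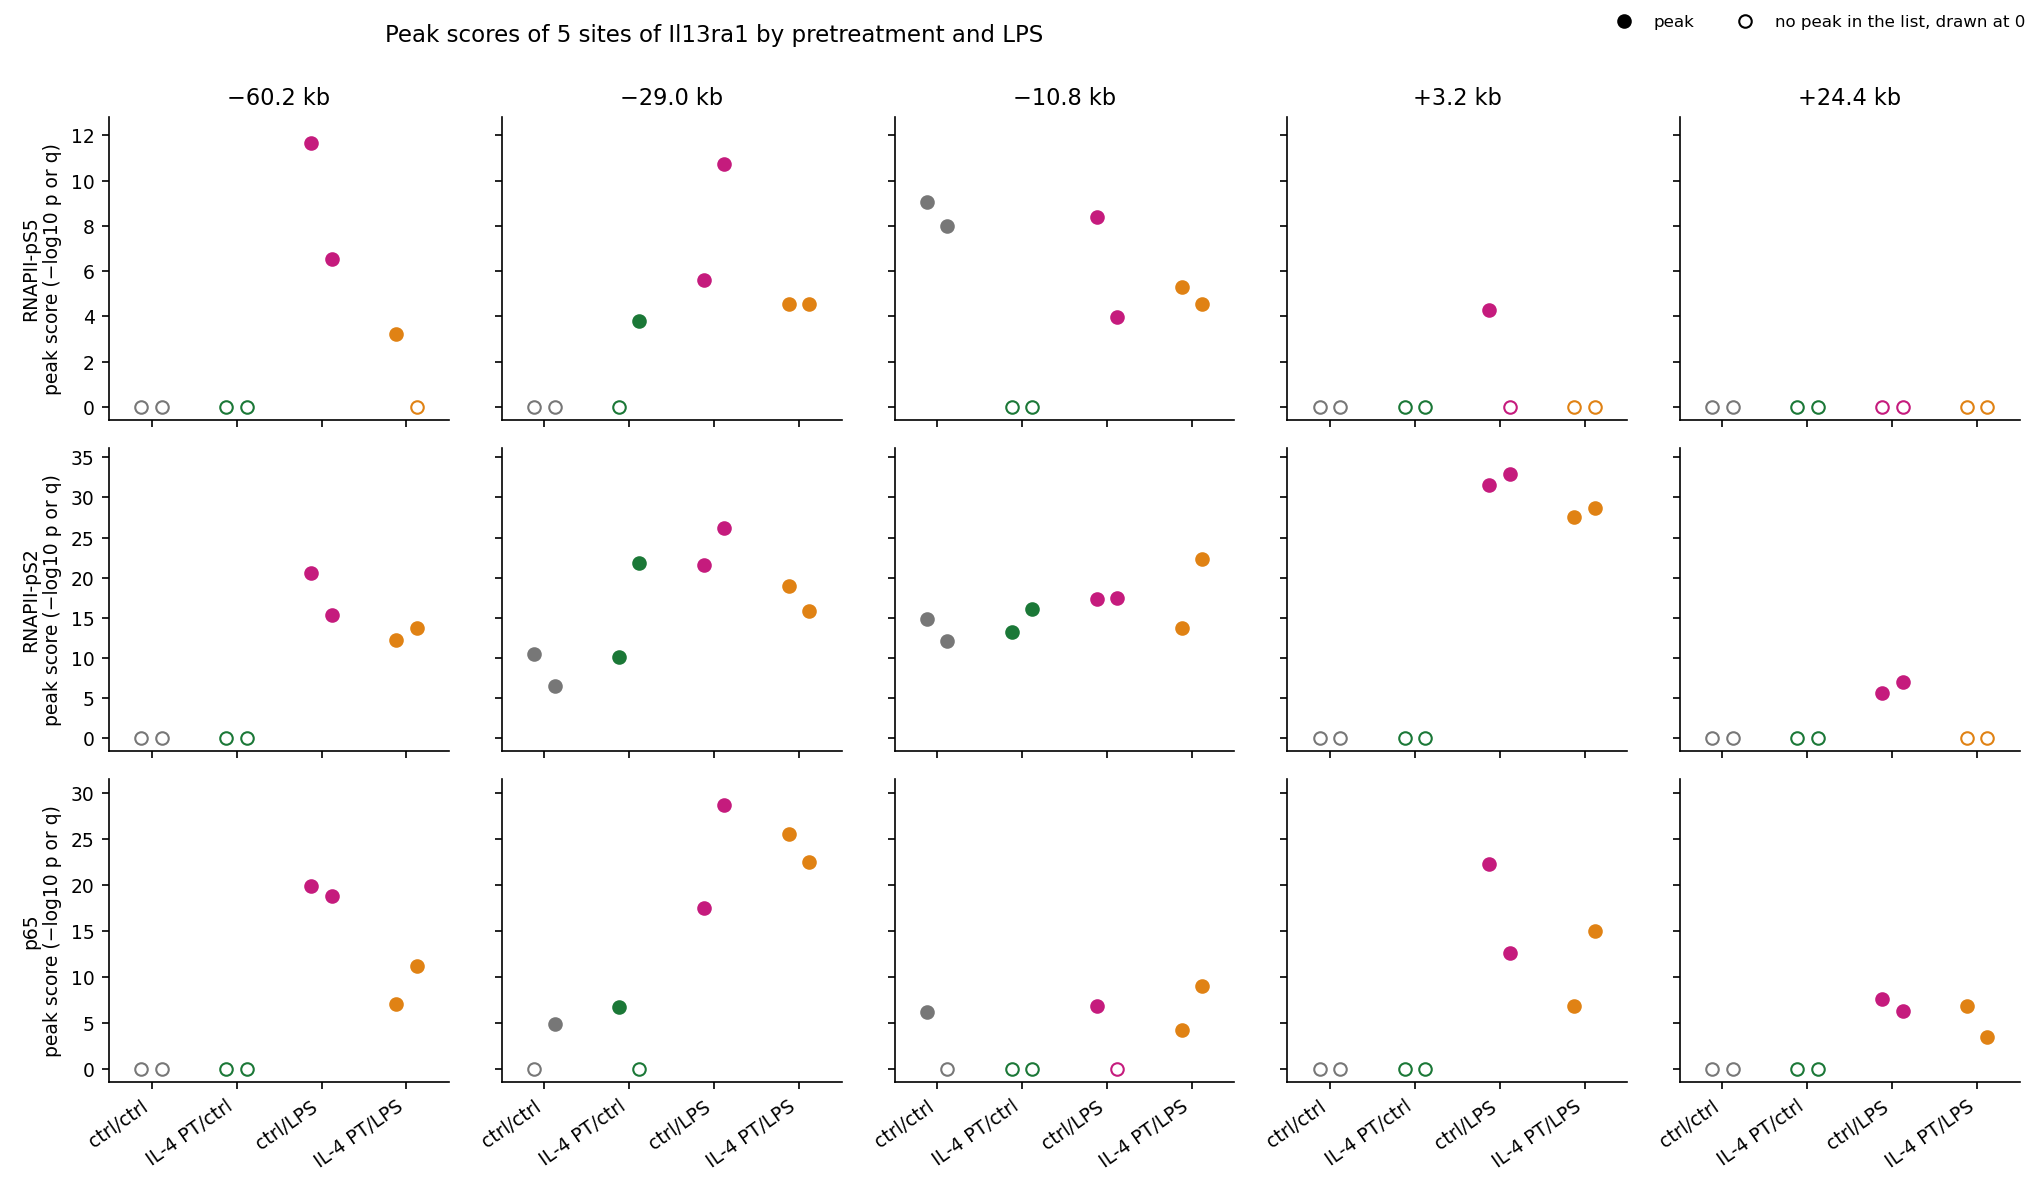
Peak scores (−log10 p or q, linear axes, shared within a row) of RNAPII-pS5, RNAPII-pS2 and p65 at 5 sites named for Il13ra1 in the 2 samples of each group of the pretreatment experiment; a point is the highest peak of the site in 1 list, and open points at 0 mark lists with no peak. RNAPII-pS2 and p65 at −60.2 and +3.2 kb were listed in the 4 samples given LPS and in no other.

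At Il4ra, the site 12.8 kb upstream was listed mainly in ctrl/LPS samples. RNAPII-pS2 scored 19.55 and 11.66 there (3.25, SE 0.29, adjusted p = 0.000661) and RNAPII-pS5 13.49 and 4.54 (2.62, SE 0.53, adjusted p = 0.0137), with no peak of either in the other 6 lists, so both passed the filter through these samples alone. p65 scored 15.81 and 16.43 in ctrl/LPS samples and 10.88 in 1 IL-4 PT/LPS sample (2.58, adjusted p = 0.065). Inside the gene, RNAPII-pS5 at +1.6 kb scored 3.61 and 3.80 in ctrl/ctrl and 7.91 and 10.07 in ctrl/LPS samples (1.45, SE 0.22, adjusted p = 0.00488). RNAPII-pS2 at +2.0 kb had no ctrl/ctrl peak and scored 13.19 and 5.58 in ctrl/LPS samples (2.43, SE 0.47, adjusted p = 0.00972). p65 at +3.4 kb, the PU.1 and p300 site, had no ctrl/ctrl peak and scored 19.90 and 14.45 in ctrl/LPS samples (2.65, SE 0.68, adjusted p = 0.0247). The RNAPII-pS5 call at +1.6 kb held without each library, and the RNAPII-pS2 call at −12.8 kb in the 6 fits that gave a value, which were not those without a ctrl/LPS library, while those of RNAPII-pS5 at −12.7 kb and RNAPII-pS2 at +2.0 kb were lost without either ctrl/ctrl library (adjusted p up to 0.0736 and 0.0592) and that of p65 at +3.4 kb without any library but the IL-4 PT/ctrl ones (up to 0.0944). At the promoter p65 was listed in all 8 samples, at 17.06 and 14.38 in ctrl/ctrl, 5.18 and 9.98 in IL-4 PT/ctrl, 28.30 and 26.88 in ctrl/LPS and 17.23 and 25.44 in IL-4 PT/LPS samples. The ctrl/LPS scores were both the higher before centring, and the difference was −0.23 with centring (adjusted p = 0.718) and 0.82 without (0.164). No RNAPII-pS5 peak of the 8 lists of this experiment was annotated to the Il4ra promoter, whereas the 4 lists of the 1 hr experiment scored 45.82 to 66.91 there, but the +1.6 kb region, listed in 6 of the 8, begins just past the start site and overlaps the promoter region of the 1 hr experiment.

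IL-4 for 24 hr without LPS changed fewer receptor regions. RNAPII-pS5 fell at 2 of 10 (16.7% of all regions passed), RNAPII-pS2 rose at 2 of 18 (21.6%), and p65 passed at 0 of 15, with 2 at unadjusted p of at most 0.05 (limma; 4.22%). RNAPII-pS2 at Il4ra −15.1 kb had no ctrl/ctrl peak and scored 8.83 and 6.53 in IL-4 PT/ctrl samples (2.50, SE 0.30, adjusted p = 0.00256), a call that held without each library. Its peaks were in IL-4-pretreated samples alone, so it had to differ from the floor. RNAPII-pS2 at Il4ra +2.0 kb also went from no peak to 5.73 and 3.54 (1.75, SE 0.47, adjusted p = 0.0464), a call lost without any library but the ctrl/LPS ones (adjusted p up to 0.187) and without centring (0.0542). RNAPII-pS5 fell at Il4ra +1.6 kb, from 3.61 and 3.80 to no peak (−1.38, SE 0.22, adjusted p = 0.00883), and at Il13ra1 −10.8 kb, from 9.06 and 8.01 to no peak (−2.58, SE 0.40, adjusted p = 0.00805). The first of these was lost without ctrl/ctrl replicate 2 (adjusted p = 0.059), the second without any of the 4 samples compared (up to 0.0596). With a floor 4 times as high the difference at Il4ra +1.6 kb became 0.62, and that of RNAPII-pS2 at +2.0 kb −0.25. The p65 regions with an unadjusted p of at most 0.05 were Il13ra1 −4.5 kb, lower in both IL-4 PT/ctrl samples (−1.11, SE 0.28, adjusted p = 0.137), and the Il2rg promoter, likewise lower in both (−1.26, SE 0.36, adjusted p = 0.208).

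Under LPS, IL-4 pretreatment went with higher scores at Il4ra −15.1 kb and lower ones at Il4ra −12.8 kb. RNAPII-pS2 at −15.1 kb had no peak in ctrl/LPS samples and scored 10.84 and 14.55 in IL-4 PT/LPS samples (3.23, SE 0.30, adjusted p = 0.00131 against the floor). p65 had no peak in ctrl/LPS samples and scored 21.14 and 25.14 in IL-4 PT/LPS samples (3.87, SE 0.44, adjusted p = 0.00144), and 3.55 in 1 IL-4 PT/ctrl sample. RNAPII-pS5 at −15.0 kb was listed in the same 2 samples, at 12.99 and 4.44, and in 1 IL-4 PT/ctrl sample at 5.74 (2.21, SE 0.78, adjusted p = 0.14). So the site was listed in IL-4-pretreated samples and in no others of this experiment, by all 3 antibodies, and in the 1 hr experiment p300 scored 7.11 there in 1 untreated sample and 10.93 and 13.79 in the IL-4 samples. At −12.8 kb RNAPII-pS2 was lower with pretreatment (−3.38, SE 0.29, adjusted p = 0.00114), as was RNAPII-pS5 (−2.63, SE 0.53, adjusted p = 0.0253), both being absent in IL-4 PT/LPS samples. The p65 difference at −12.8 kb was −2.36 (adjusted p = 0.113). At −15.1 kb p65 passed the filter through the IL-4 PT/LPS samples alone and RNAPII-pS2 through pretreated samples alone, and at −12.8 kb both RNAPII forms did so through the ctrl/LPS samples, so these regions had to differ from the floor. The RNAPII-pS5 call was lost without either ctrl/ctrl or either IL-4 PT/LPS library (adjusted p up to 0.118).

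**Figure D5:**
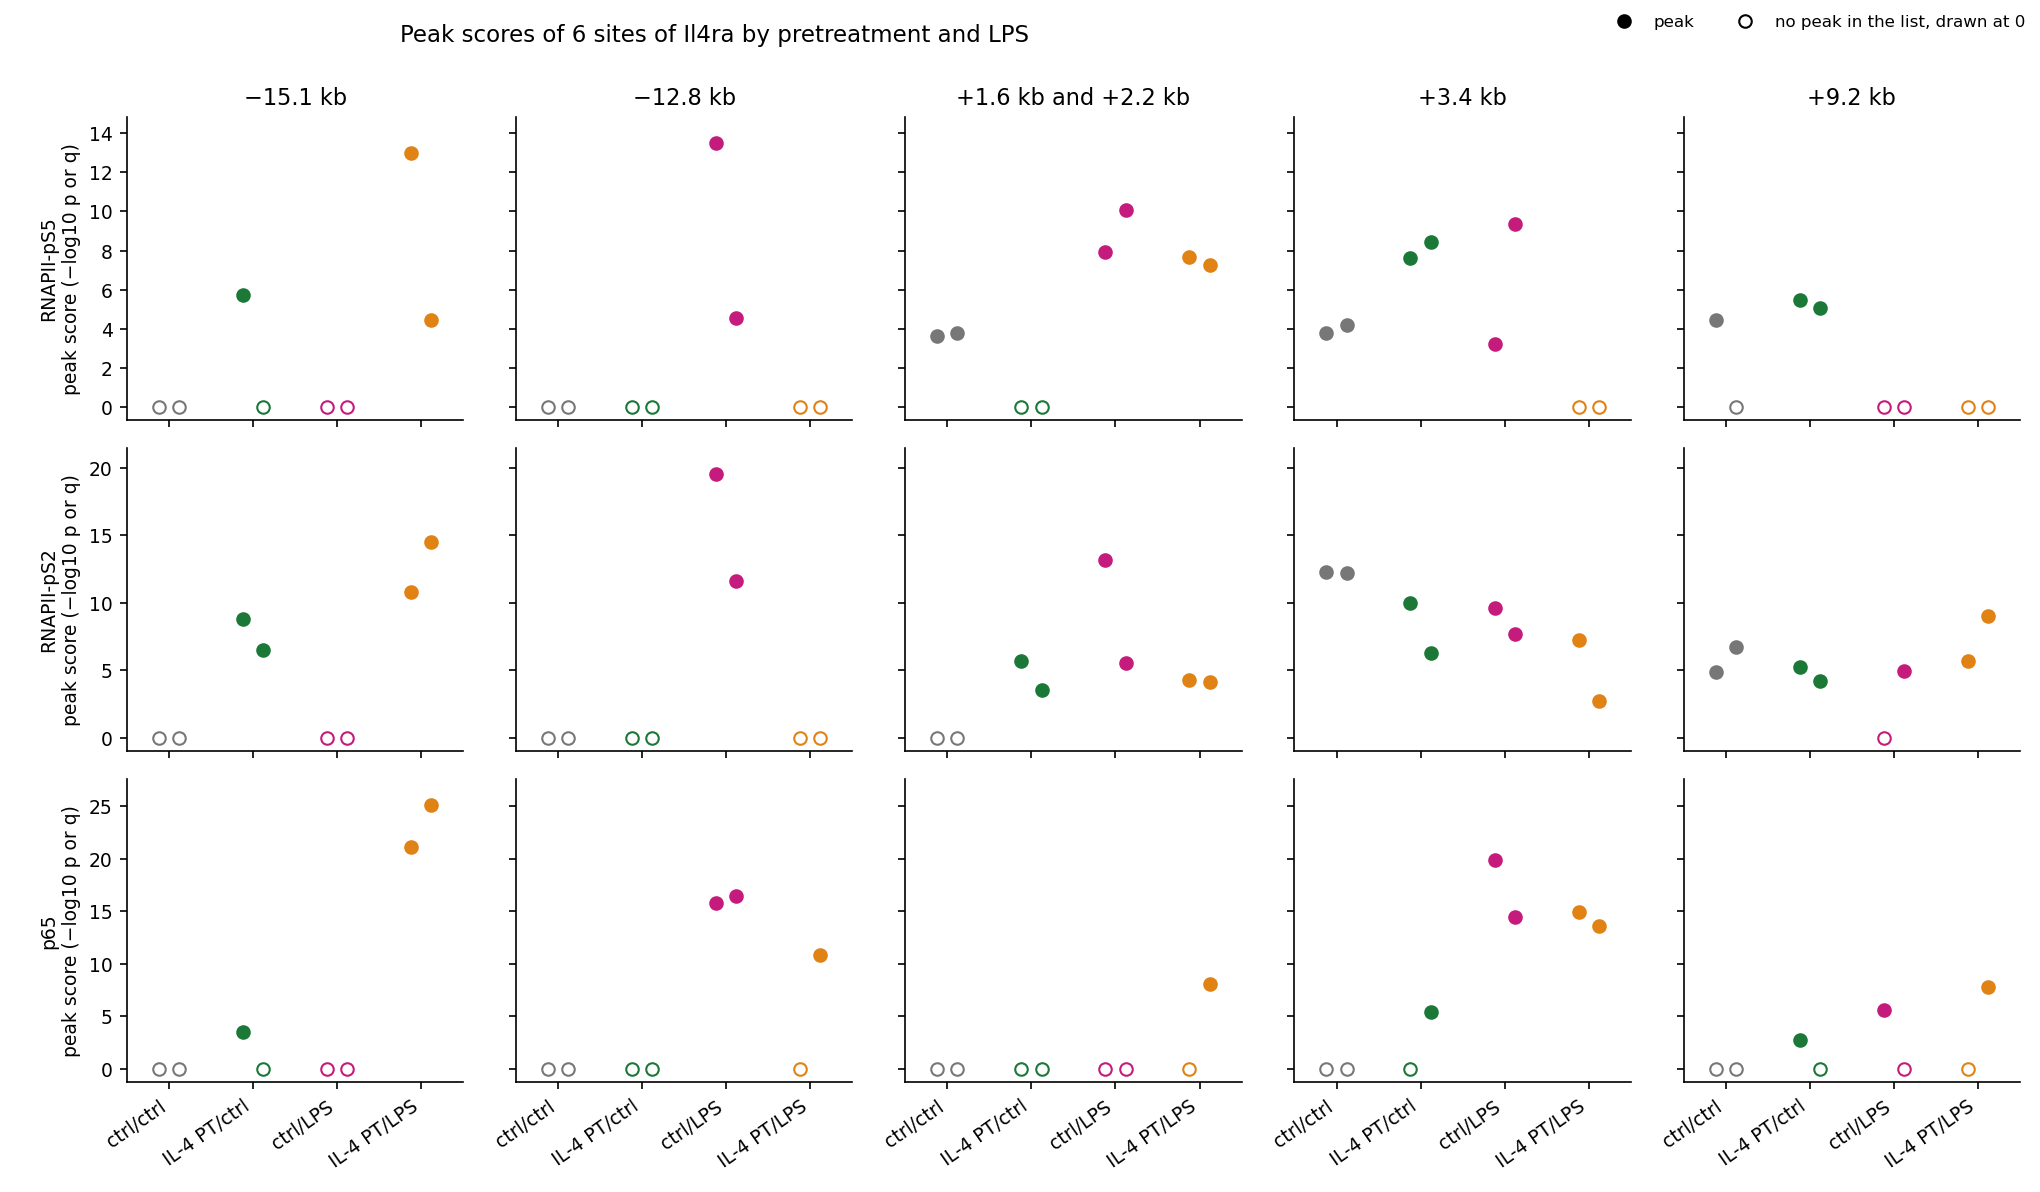
Peak scores (−log10 p or q, linear axes, shared within a row) of RNAPII-pS5, RNAPII-pS2 and p65 at 6 sites of Il4ra, those at +1.6 and +2.2 kb in 1 column, in the 2 samples of each group of the pretreatment experiment; open points at 0 mark lists with no peak. At −15.1 kb all points above 0 are IL-4-pretreated samples, and at −12.8 kb the ctrl/LPS samples lead.

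In all, pretreatment under LPS lowered RNAPII-pS5 at 3 of 10 receptor regions and raised none (13.9% passed), raised RNAPII-pS2 at 1 and lowered it at 2 of 18 (17.4%), and raised p65 at 2 and lowered it at 1 of 15 (31.3%). Of these 9, 6 passed the filter only through the group where they were higher, RNAPII-pS5 at Il13ra1 −60.3 kb among them. Without centring the RNAPII-pS5 split was 1 raised and 2 lowered. At Il13ra1 −60.2 kb p65 (−1.39, SE 0.24, adjusted p = 0.00787, and 0.0788 without IL-4 PT/LPS replicate 1) and RNAPII-pS5 at −60.3 kb (−2.21, SE 0.48, adjusted p = 0.0331, and up to 0.13 without any library but IL-4 PT/LPS replicate 1) were lower with pretreatment. RNAPII-pS2 at Il13ra1 +24.4 kb was lower (−2.11, SE 0.24, adjusted p = 0.00228), with peaks in ctrl/LPS samples alone. p65 at −11.0 kb was listed in IL-4 PT/LPS samples only, at 4.19 and 8.98 (1.96, SE 0.35, adjusted p = 0.00843), and so passed the filter through them alone, with a difference of −0.04 under a floor 4 times as high. RNAPII-pS5 at Il4ra +3.2 kb scored 3.77 and 4.18 in ctrl/ctrl, 7.62 and 8.46 in IL-4 PT/ctrl, 3.22 and 9.38 in ctrl/LPS samples, and had no peak in IL-4 PT/LPS samples. Its decrease with pretreatment under LPS (−2.12, SE 0.48, adjusted p = 0.0382) was lost without any library but ctrl/LPS replicate 1 (up to 0.155) and without centring (0.0616).

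In IL-4-pretreated cells, LPS raised RNAPII-pS5 at 3 of 10 receptor regions and lowered it at 2 (28.8% passed), raised RNAPII-pS2 at 2 of 18 (30.3%) and raised p65 at 4 of 15 (40.7%), a p65 count that was 12 of 15 without centring. Of these 11, 3 passed the filter only through the group where they were higher, and 10 had no peak in the group where they were lower. Those 3 were p65 at Il4ra −15.1 kb and RNAPII-pS5 at Il2rg +1.2 kb and Il4ra +9.2 kb, so their differences are no support for a change. At Il13ra1 −60.2 and +3.2 kb, RNAPII-pS2 and p65 had peaks in samples given LPS alone, as did p65 at +17.7 kb. These regions had to differ from the floor. The RNAPII-pS2 increases were at Il13ra1 −60.2 kb (3.03, SE 0.24, adjusted p = 0.000603) and +3.2 kb (4.15, SE 0.22, adjusted p = 0.000523), and both held without each library. Those of p65 were at Il13ra1 −60.2 kb (1.26, SE 0.24, adjusted p = 0.0103), +3.2 kb (1.44, SE 0.43, adjusted p = 0.045) and +17.7 kb (1.70, SE 0.40, adjusted p = 0.021) and at Il4ra −15.1 kb (1.91, SE 0.44, adjusted p = 0.0183). With a floor 4 times as high, the first 3 turned to −0.74, −0.56 and −0.30, of which the first was then called as a decrease (adjusted p = 0.0223). RNAPII-pS5 rose at Il4ra +1.6 kb, from no peak to 7.66 and 7.24 (2.38, SE 0.22, adjusted p = 0.00126), and at Il13ra1 −10.8 kb, from no peak to 5.29 and 4.53 (1.77, SE 0.40, adjusted p = 0.0216). It was listed at Il2rg +1.2 kb, in an exon, in IL-4 PT/LPS samples only, at 3.1 and 7.0 (1.70, SE 0.40, adjusted p = 0.0256). It fell at Il4ra +3.2 kb (−2.47, SE 0.48, adjusted p = 0.0121) and at +9.2 kb, from 5.49 and 5.07 to no peak (−1.87, SE 0.50, adjusted p = 0.0402). With that floor the differences at Il13ra1 −10.8 kb, Il2rg +1.2 kb and Il4ra +9.2 kb became −0.23, −0.30 and 0.13. The call at Il4ra +1.6 kb held without each library. Those at Il13ra1 −10.8 kb, Il4ra +3.2 kb and, for p65, Il13ra1 +17.7 kb were lost without any of the 4 samples compared (adjusted p up to 0.0958, 0.0635 and 0.106), and that at Il2rg +1.2 kb without either IL-4 PT/ctrl library (0.101). That at Il4ra +9.2 kb was lost without any library but the ctrl/ctrl ones (0.143). For p65, the call at −60.2 kb was lost without IL-4 PT/ctrl replicate 1 (0.0535), that at Il4ra −15.1 kb without either IL-4 PT/LPS library (0.0868), and that at Il13ra1 +3.2 kb without any of 5 libraries (0.172), the other 3 being the ctrl/LPS ones and IL-4 PT/LPS replicate 1.

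The difference between the response to LPS with and without pretreatment was tested as an interaction. Of the regions named below, RNAPII-pS2 at Il4ra −12.8 kb and Il13ra1 +24.4 kb passed the filter through the ctrl/LPS samples alone. p65 at Il4ra −15.1 kb did so through the IL-4 PT/LPS samples, so these had to differ from the floor. The interaction passed for RNAPII-pS5 at 1 of 10 receptor regions (17.1% of all), for RNAPII-pS2 at 3 of 18 (19.7%) and for p65 at 2 of 15 (23.2%). Without centring 3 p65 regions passed, all upward, and RNAPII-pS5 passed at 2, in opposite directions. RNAPII-pS2 at Il4ra −12.8 kb had the largest of these differences (−3.43, SE 0.41, adjusted p = 0.00584), and held in the 6 fits that gave a value, while those without either ctrl/LPS library, the ones with a peak, gave none. The others were RNAPII-pS5 at Il4ra +3.2 kb (−3.12, SE 0.68, adjusted p = 0.0298), p65 at Il4ra −15.1 kb (2.95, SE 0.62, adjusted p = 0.0214), RNAPII-pS2 at Il4ra +2.0 kb (−2.72, SE 0.66, adjusted p = 0.0363) and at Il13ra1 +24.4 kb (−2.16, SE 0.34, adjusted p = 0.00949), and p65 at Il13ra1 −60.2 kb (−1.59, SE 0.34, adjusted p = 0.0245). The last was −1.12 (adjusted p = 0.0698) without centring. Each of these 5 was lost without 1 or more libraries: RNAPII-pS2 at +24.4 kb without IL-4 PT/LPS replicate 1 (adjusted p = 0.05), p65 at −60.2 kb without any but ctrl/LPS replicate 2 (up to 0.117), p65 at −15.1 kb without any but the IL-4 PT/ctrl ones (0.135), RNAPII-pS5 at +3.2 kb without any but the ctrl/LPS ones (0.0982), and RNAPII-pS2 at +2.0 kb without any but IL-4 PT/ctrl replicate 2 and ctrl/LPS replicate 2 (0.119).

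Summed over a gene's peaks, the scores as listed, without centring, give its order across conditions. The sums of Il13ra1 include the peaks that lie in introns of Dock11. RNAPII-pS2 of Il13ra1 was highest in ctrl/LPS samples (141.8 ± 6.29, SD, n = 2), then in IL-4 PT/LPS (103.6 ± 0.212, SD, n = 2), and was 42.4 ± 1.7 and 42.15 ± 13.1 (SD, n = 2) in ctrl/ctrl and IL-4 PT/ctrl samples, which did not differ beyond their spread. p65 of Il13ra1 was 124.2 ± 0.212 in ctrl/LPS and 110.7 ± 29.6 in IL-4 PT/LPS samples, overlapping, and 37.6 ± 1.41 in ctrl/ctrl and 16.35 ± 4.74 in IL-4 PT/ctrl samples (SD, n = 2). RNAPII-pS5 of Il13ra1 was 28.1 ± 2.69 in ctrl/LPS, 14.5 ± 1.98 in IL-4 PT/LPS, 13.85 ± 0.354 in ctrl/ctrl and 1.9 ± 2.69 in IL-4 PT/ctrl samples (SD, n = 2), and the middle pair did not differ beyond its spread. p65 of Il4ra was 75.65 ± 21.6 in IL-4 PT/LPS and 63.7 ± 8.34 in ctrl/LPS samples, overlapping, and 15.75 ± 1.91 in ctrl/ctrl and 13.4 ± 2.83 in IL-4 PT/ctrl samples (SD, n = 2), which overlapped too. RNAPII-pS2 of Il4ra was 50.6 ± 5.94, 39.8 ± 1.13, 28.0 ± 2.55 and 23.25 ± 6.01 in ctrl/LPS, IL-4 PT/LPS, IL-4 PT/ctrl and ctrl/ctrl samples (SD, n = 2), the last pair within its spread. RNAPII-pS5 of Il4ra was 24.3 ± 0.424, 21.75 ± 8.56, 16.15 ± 3.75 and 9.9 ± 2.69 in the same order (SD, n = 2), where IL-4 PT/LPS overlapped with both of its neighbours. In the pretreatment experiment Il2rg had no RNAPII-pS5 or RNAPII-pS2 peak in any of the 8 lists without LPS. Its RNAPII-pS2 was 5.4 ± 0.141 and 6.4 ± 2.4 in IL-4 PT/LPS and ctrl/LPS samples (SD, n = 2). In the 1 hr experiment, also without LPS, its RNAPII-pS5 sums were 16.2 to 36.5. These sums were not tested. With centring, the log2 difference of the summed p65 score under LPS alone was 0.08 (SD 0.07) for Il13ra1 and 0.38 (SD 0.21) for Il4ra, so that the p65 order rests largely on the scaling. For RNAPII-pS2 it was 1.52 (SD 0.12) and 0.92 (SD 0.24), and for RNAPII-pS5 1.34 (SD 0.14) and 1.65 (SD 0.23).

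Across the 12 RNAPII-pS5 samples, the genes whose summed score followed each receptor gene most closely were ranked by Pearson's r among 4926 genes, as a description over samples that share libraries and depth. For Il4ra these were Msn (0.93), Snhg3 (0.92), Foxred1, Utp6 and Glrx (0.91 each). Its summed scores as listed were 62.5 to 83.6 in the 1 hr experiment and 8.0 to 27.8 in the pretreatment experiment. Its r thus includes the step between experiments. For Il13ra1 they were Aoah, Pik3ap1 and Nfkbiz (0.97 each), Trim30b (0.96) and Irgm1 (0.95). For Il2rg, which had a peak in 7 of the 12 samples, they were Manbal (0.93), Zc3h11a (0.91), Ccnt2 and Lactb2 (0.88 each) and Fbxo7 (0.87). Its summed scores were 16.2 to 36.5 in the 1 hr experiment and 0.0 to 18.4 in the pretreatment experiment. The r values of Il2rg thus include a step between experiments and absent peaks set to the floor.

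The other genes of the pathway, 17 in all, comprised the Janus kinases, Stat6, the adaptors Irs1 and Irs2 and inhibitors such as Socs1 and Cish. Socs1 and Cish were also among the 9 genes taken above as known to respond to IL-4. The counts that follow were not split by gene. After 1 hr of IL-4, their RNAPII-pS5 regions rose at 22 of 74 and fell at none (median 0.24, against 0.02 over all regions, of which 5.43% passed), their H3K27Ac regions rose at 25 and fell at 6 of 61 (0.23 against −0.02, with 40.3% of all passing), and their p300 regions rose at 13 and fell at 1 of 175 (0.56 against 0.11, with 2.46% passing). Under LPS alone their p65 regions rose at 28 and fell at 25 of 108 (0.09 against 0.09, with 46.7% passing). Counting both directions, the p65 share is near that of all regions. Over the genome, 5362 of 28929 H3K27Ac regions rose and 6288 fell. The other partners of the common gamma chain, 6 genes such as Il7r and Il21r, had 6 of 13 H3K27Ac regions lower and none higher after IL-4 (−0.42 against −0.02). Il13ra1 had 3 of 6 lower. The 40.3% of all regions that passed counts both directions, and 6288 of the 28929 were lower. These shares were not tested against each other.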

How the data were processed

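ChIP-seq peak lists of 56 BMDM samples were analysed. Per the labels, the authors aligned reads to mm10 with BWA 0.7.10 and SAMtools 0.1.19 and called peaks with MACS2 2.0.10 and HOMER 4.2. The deposited scores are −log10 p or q values for 52 lists, and for the 4 H3K27Ac lists a signal, which the authors gave as normalized tags. No input control is stated, and read depth is unknown, which limits the precision of any score. The labels give LPS in ng/ml, the unit used here, and the study's methods in nM.

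Peaks named for the 3 receptor genes were taken as the lists name them. For each antibody and experiment, peaks of all genes overlapping by 1 bp were joined, the highest score per sample was put on the log2 scale, missing peaks were set to the lowest score of the antibody, samples were centred on the median of regions found in every sample, and regions with a peak in at least 2 samples were fitted with limma 3.58.1 in R 4.3.3 (Benjamini-Hochberg over all regions, called at 0.05). The fit was tested on simulated data whose changed regions were drawn from high scores, to stay above the floor. That test does not cover a peak set against an absent one. An exact permutation test of 2 against 2 samples cannot give a p below 0.333 and was not used. In the text, all regions called are named, and else the region nearest the start and the highest of each gene. Other regions were added after their values were seen. Members and lists were chosen with earlier results of these data known. Chil3, Adgre1 and Spi1 are listed as Chi3l3, Emr1 and Sfpi1. Il2rb, Cd3g, Ly6g, Mcpt4 and Dcn were named in no list used here. Sequences are from GRCm38 and promoters from RefSeq. Alternatives changed the centring, floor, filter, peak threshold, overlap, region value, variance model, p threshold, replicate block and samples.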

Additional observations from a re-analysis of the deposited data

Results flagged for a closer look

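At 6 of 43 tested receptor regions the effect of LPS differed between IL-4-pretreated and other cells by the interaction term in limma, with adjusted p of at most 0.05 over all regions, where 17.1% to 23.2% of all regions passed, depending on the antibody. The difference was positive for p65 at Il4ra −15.1 kb (2.95), which was listed after IL-4 pretreatment only. It was negative for RNAPII-pS2 at Il4ra −12.8 kb (−3.43) and +2.0 kb (−2.72), for RNAPII-pS5 at Il4ra +3.2 kb (−3.12), for RNAPII-pS2 at Il13ra1 +24.4 kb (−2.16) and for p65 at −60.2 kb from Il13ra1 (−1.59), which lies in Dock11. All but the RNAPII-pS2 difference at −12.8 kb were lost on leaving out 1 or more libraries, and that one had no value without either ctrl/LPS library. The p65 difference at −60.2 kb also did not pass without centring (adjusted p = 0.0698). RNAPII-pS2 at Il4ra −12.8 kb and Il13ra1 +24.4 kb passed the filter through the ctrl/LPS samples alone. p65 at Il4ra −15.1 kb did so through the IL-4 PT/LPS samples, so these had to differ from the floor.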

How the results depend on the processing

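Of the 54 called differences at receptor regions, 49 were also called without centring, 48 with quantile normalization, and 20 in every fit that left out 1 sample and gave a value, 7 of which had no value in some of these fits. Leaving out samples gave 3 to 5 calls after 1 hr of IL-4 (5 with all samples), 9 to 19 after LPS (19), 1 to 4 after 24 hr of IL-4 (4), 5 to 8 for pretreatment under LPS (9), 4 to 11 for LPS in pretreated cells (11) and 1 to 4 for the interaction (6). The same 6 counts with a peak required in every sample were 8, 3, 0, 0, 0 and 0, as fewer regions were tested. With the upper 50% of peaks, LPS gave 11, 24 hr of IL-4 gave 1, pretreatment under LPS 3 and LPS in pretreated cells 7. At an unadjusted p of at most 0.05 the counts were 23 after 1 hr of IL-4, 7 after 24 hr, 14 for pretreatment under LPS and 14 for the interaction. A trend with robust estimation gave 10 after 1 hr of IL-4, and no centring gave 19 for LPS in pretreated cells. With the floor 4 times as high, 24 hr of IL-4 gave 0 and the interaction 3. That floor reversed the sign at 13 called differences: RNAPII-pS5 after 24 hr of IL-4 at Il4ra +1.6 kb (0.62); RNAPII-pS5 under LPS in pretreated cells at Il13ra1 −10.8 kb (−0.23), Il2rg +1.2 kb (−0.30) and Il4ra +9.2 kb (0.13); RNAPII-pS2 at Il13ra1 +24.4 kb under LPS (−0.03) and Il4ra +2.0 kb after 24 hr of IL-4 (−0.25); p65 under LPS at Il13ra1 −61.6 kb (−0.09), +17.7 kb (−0.34) and +24.5 kb (−0.64); p65 at −11.0 kb for pretreatment under LPS (−0.04); and p65 under LPS in pretreated cells at −60.2 kb (−0.74, called in that direction at 0.0223), +3.2 kb (−0.56) and +17.7 kb (−0.30). With the upper 50% of peaks RNAPII-pS5 became 0.02 at Il4ra +1.6 kb after 24 hr of IL-4 and −0.11 at Il13ra1 −10.8 kb under LPS in pretreated cells. A higher floor shrinks differences against an absent peak by construction, and the cause of the other changes was not tested. Samples with the same replicate number did not deviate together (r from −0.048 to 0.06). Whether equal numbers share an animal or a day cannot be told from this. The replicate block gave 5 calls after 1 hr of IL-4, 18 after LPS, 4 after 24 hr of IL-4, 9, 10 and 6 for the last 3 comparisons, and 51 of the 54 calls were kept. Of the alternatives for the summed scores, 536 moved by less than 1 SD and 190 by more.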
